A study of Homo sapiens with 6 samples.

Results

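The genes described here are the epidermal growth factor (EGF) receptor family and the genes that feed it and hold it back, 10 in all, chosen by name: the ligand genes HBEGF, NRG1, TGFA, AREG and EREG, the receptor genes EGFR, ERBB2 and ERBB3, the protease gene ADAM17 and the inhibitor gene ERRFI1. All 10 were among the 15651 genes of the expression table, and all 10 were among the 15246 that passed the filter on low values. The RNA came from MDA-MB-231, an established human line of triple-negative breast cancer (TNBC), grown in DMEM with fetal bovine serum, in 3 libraries from cells given DMSO, the solvent, and 3 from cells given BRL-50481, an inhibitor of the cAMP phosphodiesterase PDE7A. The study's treatment text gives 50 μM for 72 h, whereas the treatment tag of the BRL-50481 samples gives 5 μM and 48 h. All 6 libraries come from this line, with no other allele or agent named, so the values describe a single cell line in culture. The study calls the libraries of a group biological replicates. RNA was taken from whole cultures, in which fewer cells of a type and less RNA per cell cannot be told apart.

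EGF receptors are tyrosine kinases of the cell surface that pair up when a ligand binds and pass the signal to the RAS-ERK and PI3K-AKT pathways. Their ligands are made as membrane-anchored precursors, and proteases of the ADAM family, ADAM17 above all, cut them free. HB-EGF, TGF-α, amphiregulin and epiregulin bind EGFR, and HB-EGF and epiregulin also bind ERBB4, while neuregulin 1 binds ERBB3 and ERBB4. ERBB2 has no known ligand and acts as a partner of the others. The family is much studied in TNBC because EGFR is often abundant there.

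Expression was given as normalized counts, the reads on a gene divided by a size factor of the library. The libraries held between 30750573 and 33446984 reads on genes. Markers of the line were present in every library. VIM had 58840 ± 2498 normalized counts and AXL 45015 ± 315 in DMSO (SD, n = 3, as are all values after ± below). With BRL-50481 VIM had 87654 ± 956 and AXL 48896 ± 816. SNAI2, the scarcest of 7 such markers, had 1161 ± 59.2 in DMSO and 950 ± 30.8 with BRL-50481. By the test used below 4 of the 7 were higher, SNAI2 alone was lower and 2 did not pass. Over all genes 28.9% were higher and 29.8% lower. ESR1 was not in the table and PGR had at most 7.8 normalized counts in any library. The luminal markers present were mixed in direction, 3 higher and 2 lower of 6 tested, with a summed level of 8068 to 9340 normalized counts in DMSO libraries and 11316 to 11940 in those given BRL-50481. Most of this sum was KRT19, at 7714 ± 634 in DMSO and 10495 ± 315 with BRL-50481. GATA3 and CDH1 were also higher, and EPCAM and FOXA1 were lower. Of 6 markers of blood and endothelium, PTPRC, CD3E and HBB were not in the table, and the sum of the other 3 ran from 785 to 831 in DMSO libraries and from 940 to 1060 in the others. The part of any marker list in the results below was not tested. DMSO replicate 1 lay farthest from its group, with a residual SD of 0.142 on the log2 scale against 0.0791 to 0.119 in the other 5 libraries.

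In BRL-50481-treated cells 9 of the 10 genes were higher and 0 were lower, by limma over all genes tested with the Benjamini-Hochberg adjusted p-value below 0.05. Over all genes, 28.9% were called higher and 29.8% lower by the same rule. The members were chosen with earlier results of these data known, so the comparison with these shares is a description only. Among the members HBEGF changed most, to 2.54 times its DMSO level, and was the only member with a log2 fold change over 1, which 5.06% of all genes passed together with the test. EGFR, ERRFI1 and NRG1 followed at 1.66, 1.47 and 1.44 times, ADAM17 and TGFA at 1.29 and 1.26 times, and ERBB2, AREG and EREG at 1.14 times each. ERBB3 did not pass the test. The median log2 fold change was 0.35 over the members and 0.015 over all genes tested. The same 9 genes, all but ERBB3, had every BRL-50481 library above every DMSO library, which held for 31.9% of all genes tested, while 32.3% had every BRL-50481 library below. For any single gene, 3 libraries against 3 cannot give a two-sided exact permutation p below 0.1. Both count-based tests, edgeR and DESeq2 on the reads recovered from the table, also called 9 members higher, against 28.6% and 26.9% of all genes.

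**Figure D1:**
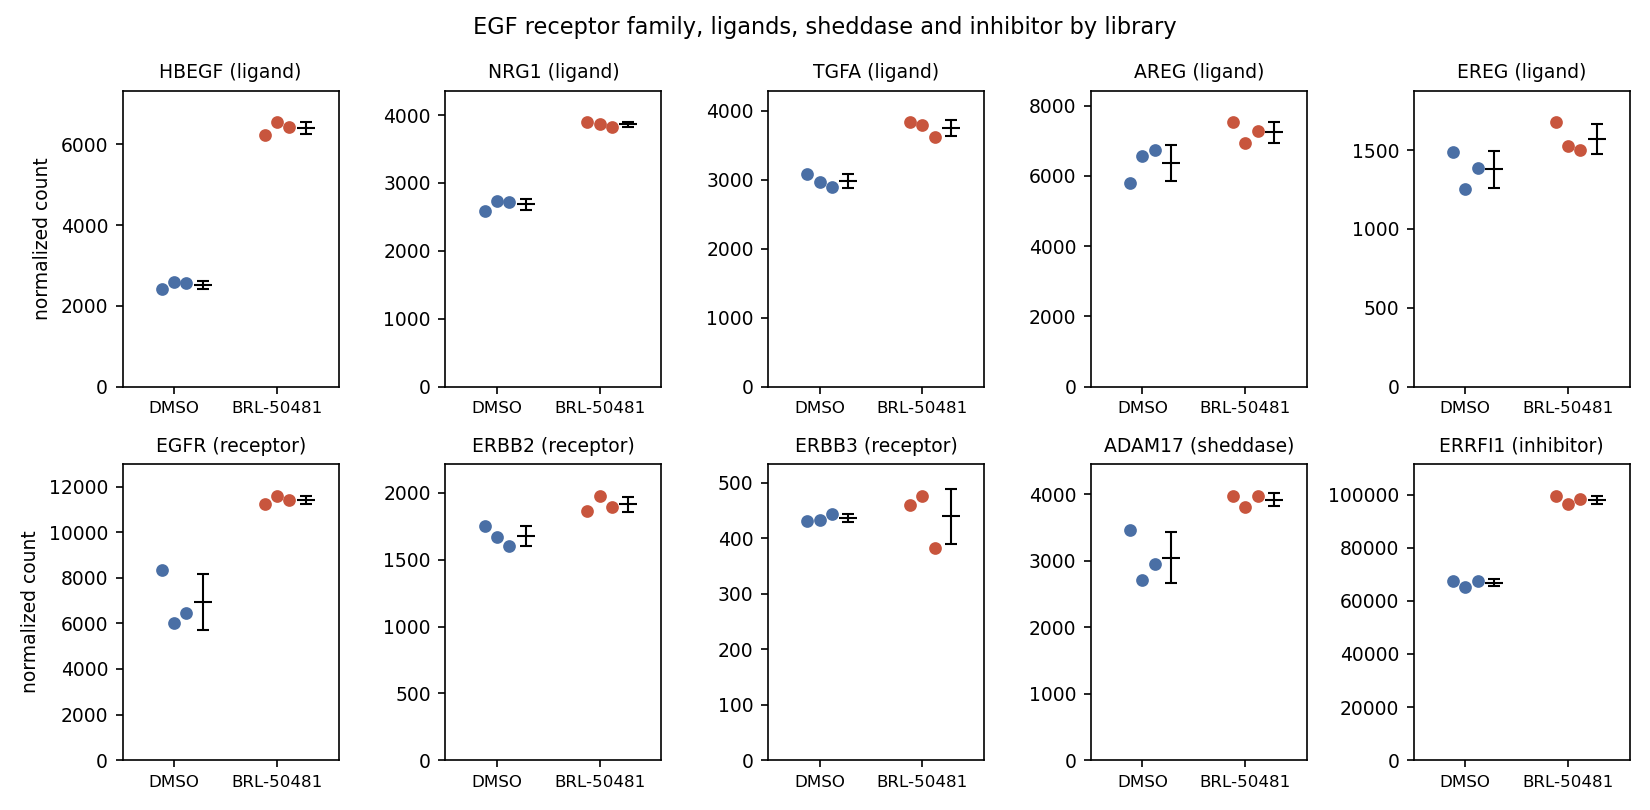
Normalized count (vertical axis, from 0) of each of the 10 genes in the 3 DMSO libraries (blue) and the 3 BRL-50481 libraries (red), with the mean and SD of each group in black. The groups are far apart for HBEGF, 2419 to 2602 against 6239 to 6550.2, and overlap in ERBB3 alone.

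HBEGF encodes heparin-binding EGF-like growth factor and lies on chromosome 5 of hg38, from 140332843 to 140346603 on the minus strand. It had 2419, 2602 and 2558 normalized counts in the DMSO libraries and 6239, 6550.2 and 6432 in the BRL-50481 libraries. The lowest BRL-50481 library was above the highest DMSO library by 3637 normalized counts, far more than libraries of the same group differed. Its log2 fold change was 1.34 with a 95% interval of 1.23 to 1.45 (limma, adjusted p = 8.92e-10, higher in 3 of 3 libraries). Its rise ranked 432 in size among all 15246 genes tested, and 16 among the 6576 that averaged 1000 or more normalized counts. Its log2 fold change stayed between 1.31 and 1.39 under all 16 alternative ways of processing.

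NRG1 encodes neuregulin 1, the ligand in the set that does not bind EGFR. Its normalized counts were 2593, 2737 and 2722 in DMSO and 3895, 3863 and 3832 in BRL-50481, and the groups did not overlap. On the log2 scale the difference was 0.53, with a standard error (SE) of 0.0490 (limma, adjusted p = 1.26e-06). The gene makes many isoforms from separate promoters, which a count per gene does not tell apart, and 1 unnamed gene in GENCODE shares exon sequence with it on the same strand.

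TGFA, the gene of TGF-α, lies on chromosome 2 from 70447284 to 70554193. It had 3084, 2964 and 2889 normalized counts in DMSO and 3834, 3795 and 3613 in BRL-50481. Each BRL-50481 library was again above each DMSO library, and the log2 difference of 0.33 (SE 0.0512, limma adjusted p = 0.000101) was called under every alternative.

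AREG and EREG encode amphiregulin and epiregulin and stand beside each other on chromosome 4, AREG from 74445136 to 74455005 and EREG from 74365145 to 74388749, both on the plus strand with 56.4 kb between them. Amphiregulin is a long-known product of mammary epithelium, and its transcription is raised by cAMP through the factor CREB. AREG had 5783, 6549 and 6742 normalized counts in DMSO and 7524, 6929 and 7263 in BRL-50481. Its DMSO libraries spread over 1.17 times, farther than the 1.14 times between the group means. The log2 difference was 0.19 (SE 0.0602, limma adjusted p = 0.0156). Without DMSO replicate 1, the lowest library, it was 0.12, and without BRL-50481 replicate 1 or 3 the adjusted p-value was 0.0834 or 0.0548.

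EREG had 1489, 1255 and 1386 normalized counts in DMSO and 1676, 1528 and 1499 in BRL-50481. The highest DMSO and the lowest BRL-50481 library were 9.19 normalized counts apart, so the groups barely separated. It differed by 0.19 on the log2 scale (SE 0.0727, limma adjusted p = 0.0390), and the call was lost when any library but DMSO replicate 1 was left out, giving adjusted p-values as high as 0.179. Without DMSO replicate 2 the log2 fold change was 0.12. Of the other ligand genes of this cluster, BTC, 290 kb past AREG on the opposite strand, was higher, and EPGN was not in the table.

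Sequence before the transcription start is shown for AREG, because it holds the palindromic cAMP response element, for EREG, because it is the neighbour with a change of the same size, and for HBEGF, because it changed most among the 10 members. Each run is the 250 bases before the start of the gene in RefSeq on GRCh38.p14, written 5′ to 3′ on the strand of the gene, at chr4:74444886-74445135 for AREG, chr4:74364895-74365144 for EREG and chr5:140346604-140346853 for HBEGF. Capitals mark the cAMP response element TGACGTCA, its shorter core TGACG and the AP-1 motif TGANTCA on either strand. TGACG is part of TGACGTCA, so a full element counts for both.
AREG: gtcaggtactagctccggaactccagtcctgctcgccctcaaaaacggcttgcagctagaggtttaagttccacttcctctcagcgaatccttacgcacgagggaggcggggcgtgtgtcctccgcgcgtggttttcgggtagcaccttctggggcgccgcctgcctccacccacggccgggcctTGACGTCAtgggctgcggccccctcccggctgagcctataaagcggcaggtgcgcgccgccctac
EREG: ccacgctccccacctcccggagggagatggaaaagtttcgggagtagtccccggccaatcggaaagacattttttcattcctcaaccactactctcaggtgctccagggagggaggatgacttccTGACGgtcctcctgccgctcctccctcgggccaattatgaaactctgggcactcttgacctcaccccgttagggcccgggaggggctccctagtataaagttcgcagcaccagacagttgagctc
HBEGF: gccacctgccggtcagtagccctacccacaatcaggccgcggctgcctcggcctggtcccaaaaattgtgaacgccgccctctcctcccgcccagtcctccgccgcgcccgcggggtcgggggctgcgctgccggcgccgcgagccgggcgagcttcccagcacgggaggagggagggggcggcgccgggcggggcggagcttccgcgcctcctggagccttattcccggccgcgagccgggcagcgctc

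In AREG the full element stood 65 to 58 bases before the start, and in EREG the core alone stood at 125 to 121. HBEGF had neither and no AP-1 motif in this window, but 5 copies of the GC box GGGCGG counted on both strands, of which a neighbouring pair shared a base. Among the 35116 RefSeq windows of this length, 1.65% held TGACGTCA, 21.2% TGACG, 6.57% TGANTCA and 42.6% GGGCGG. Among the 15934 windows of genes tested here, the set to which the members belong, the shares were 2.32%, 26.6%, 4.84% and 61.4%. The search covered 10 windows of 8 members (all but ERBB3 and NRG1), since TGFA and EGFR had 2 each, so counts per member are not on the same footing as the shares per window. Chromosome 8, where NRG1 lies, was left out of the search in the members, a limit that was not set for these shares. Of the 8 members, 1 held the full element, 4 held the core (AREG, EREG, TGFA and ADAM17) and 2 held the AP-1 motif (EGFR and ERBB2). The GC box was not particular to HBEGF, since 6 of the 8 held it (HBEGF, AREG, TGFA, EGFR, ADAM17 and ERRFI1). In EGFR the AP-1 motif was only in the window of an internal start, at chr7:55109589-55109838, and not in that before the start of the whole gene. These matches are letters in the reference and not evidence of a bound factor.

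The remaining ligand genes were much scarcer. EGF, which encodes EGF itself, had 43.7, 29.4 and 38.8 normalized counts in DMSO and 105.7, 128.9 and 128.9 in BRL-50481, which is 1.69 on the log2 scale (SE 0.188, limma adjusted p = 5.94e-06). BTC, the gene of betacellulin, had 22.8, 20.6 and 26.6 in DMSO and 66.4, 55.4 and 71.7 in BRL-50481, which is 1.43 on the log2 scale (SE 0.214, limma adjusted p = 7.75e-05). Both were higher in 3 of 3 libraries, from levels far below that of HBEGF. NRG2 had 5.11 to 20.6 normalized counts in DMSO and 12.1 to 16.1 in BRL-50481 and did not pass the test (adjusted p = 0.422 in limma, 95% interval of the log2 fold change −0.53 to 1.41). NRG3 and NRG4 were not in the table. Of the 8 ligand genes tested, 7 were higher and 0 lower, against 28.9% and 29.8% of all genes. The members already described make up 5 of those 7. The ligand list, like the members, was chosen with earlier results of these data known.

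EGFR, the receptor that the first-named ligands share, lies on chromosome 7 from 55019017 to 55211628. Its normalized counts were 8321, 6018 and 6453 in DMSO and 11218, 11598 and 11403 in BRL-50481. The DMSO libraries spread over 1.38 times, with replicate 1 above the other 2, while the BRL-50481 libraries lay within a CV of 1.67%. Its log2 fold change came to 0.73 (SE 0.0897, limma adjusted p = 1.35e-05). With each library left out in turn it lay between 0.64 and 0.87, the highest without DMSO replicate 1.

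ERBB2, the partner receptor known as HER2, lies on chromosome 17 from 39687914 to 39730426. It had 1756, 1669 and 1606 normalized counts in DMSO and 1864, 1979 and 1898 in BRL-50481. The groups were 108 normalized counts apart at their nearest, and the log2 difference was 0.19 (SE 0.0577, limma adjusted p = 0.0119). Without DMSO replicate 3 or BRL-50481 replicate 2 the adjusted p-value was 0.0663 or 0.0638.

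ERBB3, the neuregulin receptor that pairs with ERBB2 and binds PI3K, lies on chromosome 12 from 56076799 to 56103505. It had 432, 433 and 444 normalized counts in DMSO and 459, 476 and 382 in BRL-50481. BRL-50481 replicates 1 and 2 were above all DMSO libraries and replicate 3 was below them, so the groups overlapped. The log2 difference was 0.0028 (SE 0.0938, limma adjusted p = 0.983), with a 95% interval of −0.20 to 0.21, and an unnamed GENCODE gene shares exon sequence with ERBB3 on its strand. ERBB4 was nearly absent, at 0 to 5.95 normalized counts in each library, and did not pass the filter on low values.

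**Figure D2:**
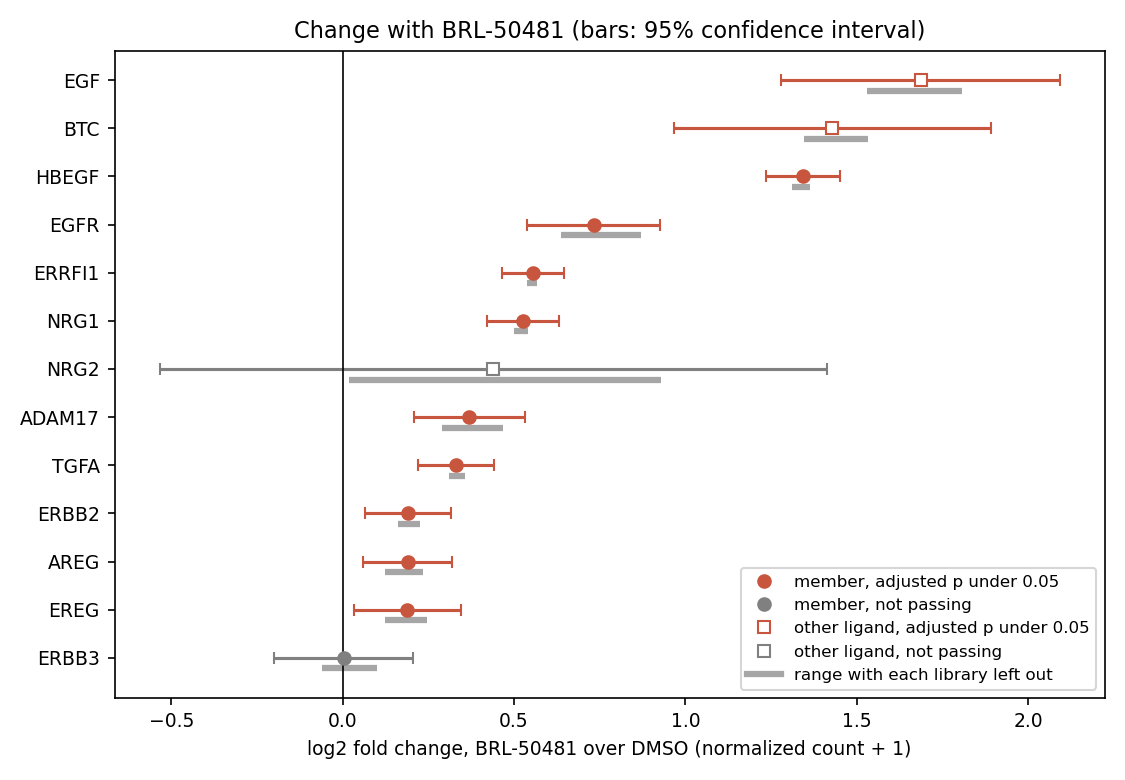
Log2 fold change of BRL-50481 over DMSO (horizontal axis) for the 10 members (circles) and 3 scarcer ligand genes (squares), with 95% confidence intervals, coloured where the adjusted p-value was under 0.05, and in grey below each the range with 1 library left out in turn. Intervals of EREG, AREG and ERBB2 lie close to 0, that of ERBB3 spans 0, and that of HBEGF runs from 1.23 to 1.45.

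ADAM17 encodes the main protease that frees TGF-α, amphiregulin, epiregulin and HB-EGF from the membrane, and lies on chromosome 2 from 9488486 to 9556732. It had 3468, 2716 and 2955 normalized counts in DMSO and 3976, 3809 and 3966 in BRL-50481. As for EGFR, DMSO replicate 1 was the highest of its group and still below every BRL-50481 library. The log2 difference was 0.37 (SE 0.0746, limma adjusted p = 0.000858), and leaving out single libraries moved it between 0.29, without DMSO replicate 2, and 0.47, without replicate 1.

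ERRFI1 encodes MIG6, which binds the kinase domain of EGF receptors and blocks it, and which is itself induced by EGFR signalling. It lies on chromosome 1 from 8004404 to 8026309 and was the most abundant member. It had 67542, 65286 and 67477 normalized counts in DMSO and 99571, 96509 and 98197 in BRL-50481. The groups were far apart for their spread, and the log2 fold change came to 0.56 (SE 0.0422, limma adjusted p = 2.16e-07). Quantile normalization, which forces all libraries onto one distribution, gave 0.85, while centring each library on its median gave 0.59.

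To compare levels between genes, normalized counts were divided by the length of the canonical GENCODE transcript. On this scale ERRFI1 stood at 21559 ± 415 normalized counts per kb in DMSO, at rank 82 of 14216 genes with a matched length. AREG followed at 5152 ± 411 per kb, rank 394, and HBEGF at 1071 ± 40.4. TGFA at 724 ± 23.9, EGFR at 699.7 ± 124 and ADAM17 at 694 ± 87.4 per kb had overlapping ranges in DMSO and could not be ordered. ERBB2 at 368 ± 16.6, EREG at 298 ± 25.5, NRG1 at 224 ± 6.63 and ERBB3 at 77.7 ± 1.24 per kb came below them, each range clear of the next. In BRL-50481 EGFR, at 1152 ± 19.2 per kb, stood above TGFA at 910.2 ± 28.6 and ADAM17 at 892 ± 21.3, and EREG at 339.7 ± 20.6 overlapped with NRG1 at 322 ± 2.65. Each level rests on 1 canonical length, 11.983 kb for NRG1, while the counts pool all isoforms. The order of the genes, and the shares below, therefore depend on these lengths. In normalized counts NRG1, at 2684 ± 79.4 in DMSO, stood above EREG at 1377 ± 118.

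The make-up of the ligand transcripts, looked at after the values had been seen, shifted toward HBEGF. HBEGF made up 14.6%, 14.4% and 13.9% of the summed level per kb of the 8 ligand genes in the DMSO libraries and 25.4%, 27.7% and 26.8% in the BRL-50481 libraries. AREG made up 66.8%, 69.4% and 70.1% in DMSO and 58.6%, 56.1% and 57.8% in BRL-50481. The groups did not overlap for either gene, so AREG gave way in share although its level was higher, and it was the largest share in all 6 libraries. TGFA overlapped between the groups, with mean shares of 9.70% ± 0.871 in DMSO and 8.92% ± 0.296 in BRL-50481. The summed level of the 8 ligand genes was 7487 ± 413 per kb in DMSO, and with BRL-50481 it was 10202 ± 197.

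Among the receptor transcripts, EGFR made up 64.5%, 57.8% and 60.2% of the summed level per kb in DMSO and 69.8%, 69.3% and 70.4% in BRL-50481. ERBB2 made up 29.6%, 34.8% and 32.5% in DMSO and 25.2%, 25.7% and 25.5% in BRL-50481. ERBB3 made up 5.90%, 7.33% and 7.31% in DMSO and 5.04%, 5.02% and 4.16% in BRL-50481, although its level did not pass the test. The share of EGFR was thus higher, and those of ERBB2 and ERBB3 lower, in each BRL-50481 library than in each DMSO library. In ligand and receptor shares alike, the design cannot give an exact permutation p below 0.1.

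**Figure D3:**
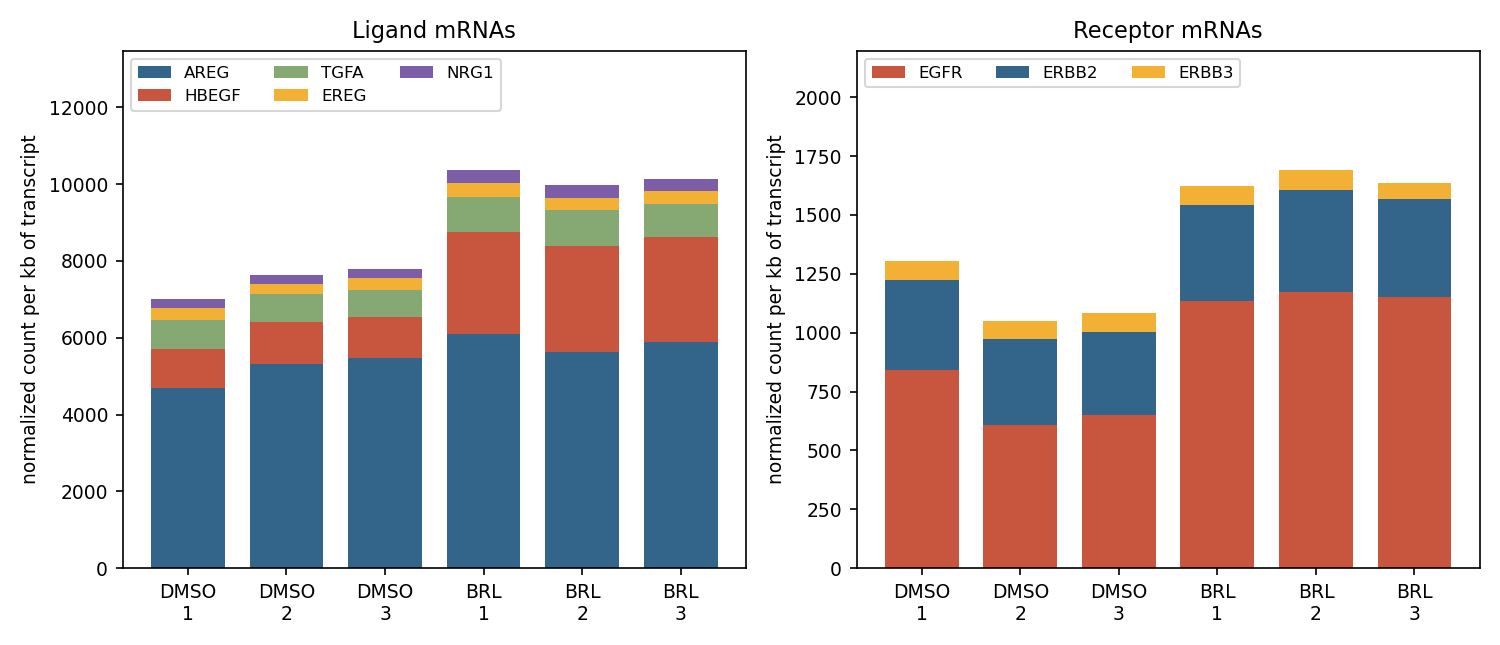
Normalized counts per kb of canonical transcript (vertical axes, from 0), stacked for the 5 ligand members (left) and the 3 receptor members (right) in each library. The red HBEGF band widens from a mean of 1071 per kb in DMSO to 2717 per kb in BRL-50481, and EGFR is the largest receptor band in every library.

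In a list of 12 sheddases and their regulators, ADAM17 included, 10 were higher and 2 lower, and the median log2 difference was 0.47. The list mixes proteases with genes that help or block them. Over all genes 28.9% were higher and 29.8% lower, with a median of 0.015. The counts of this list and of each list below are to be read against these shares. All the lists were written with earlier results of these data known, so a count above these shares is a description and not a test. TIMP3, the tissue inhibitor that blocks ADAM17, had 8500 ± 154 normalized counts in DMSO and 13058 ± 345 with BRL-50481, 0.62 higher on the log2 scale (adjusted p = 1.23e-07 in limma). ADAM19, a related protease that can cut neuregulin, rose by 0.60 on the log2 scale (adjusted p = 1.18e-05 in limma). FRMD8, which keeps the ADAM17 and iRhom complex on the surface, had 1259 ± 22.8 normalized counts in DMSO against 884 ± 89.2 and fell by 0.52 (adjusted p = 7.09e-05 in limma). ADAM15 fell by 0.41 (adjusted p = 3.14e-05 in limma).

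In a list of 22 genes of negative regulation and receptor degradation, ERRFI1 included, 9 were higher, 5 were lower and 8 did not pass. This is not far from the shares over all genes, and the median log2 difference was −0.0018. The list does not separate genes that speed loss of the receptor from those that slow it. UBASH3B, a phosphatase that counters the ubiquitin ligase CBL and slows loss of EGFR, had 1165 ± 86.5 normalized counts in DMSO and 2031 ± 80.8 with BRL-50481, 0.80 higher on the log2 scale (adjusted p = 4.46e-07 in limma). SH3KBP1, the adaptor CIN85 that links CBL to endocytosis, rose by 0.68 (adjusted p = 6.67e-08 in limma). SOCS3, a suppressor of cytokine signalling, fell by 0.57 (adjusted p = 2.67e-06 in limma) and LRIG3, of the LRIG family of receptor regulators, fell by 0.53 (adjusted p = 2.72e-05 in limma).

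Of 27 genes of receptor endocytosis and sorting, 7 were higher and 7 lower, with a median of −0.0028. AP2B1, a subunit of the clathrin adaptor AP-2, and USP8, a deubiquitinase that acts on EGFR at endosomes, rose by 0.56 and 0.54 on the log2 scale (adjusted p = 2.24e-06 and 1.71e-05 in limma). STAM, which sorts ubiquitinated receptors, and RAB5C, a GTPase of early endosomes, fell by 0.50 and 0.47 (adjusted p = 2.15e-06 and 6.19e-06 in limma).

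Of 34 adaptors and effectors close to the receptors, 12 were higher and 11 lower, with a median of 0.061. The adaptor gene SHC1 had 3823 ± 210.1 normalized counts in DMSO and 5877 ± 226 with BRL-50481, 0.62 higher on the log2 scale (adjusted p = 6.95e-07 in limma). BRAF, a kinase of the ERK pathway, rose by 0.66 (adjusted p = 0.000823 in limma). HRAS, a RAS GTPase, had 2813 ± 217 normalized counts in DMSO against 1756 ± 93.6 and fell by 0.68 (adjusted p = 1.92e-06 in limma). SHC2, a relative of SHC1, fell by 0.62 (adjusted p = 0.00540 in limma) from a much lower level.

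**Figure D4:**
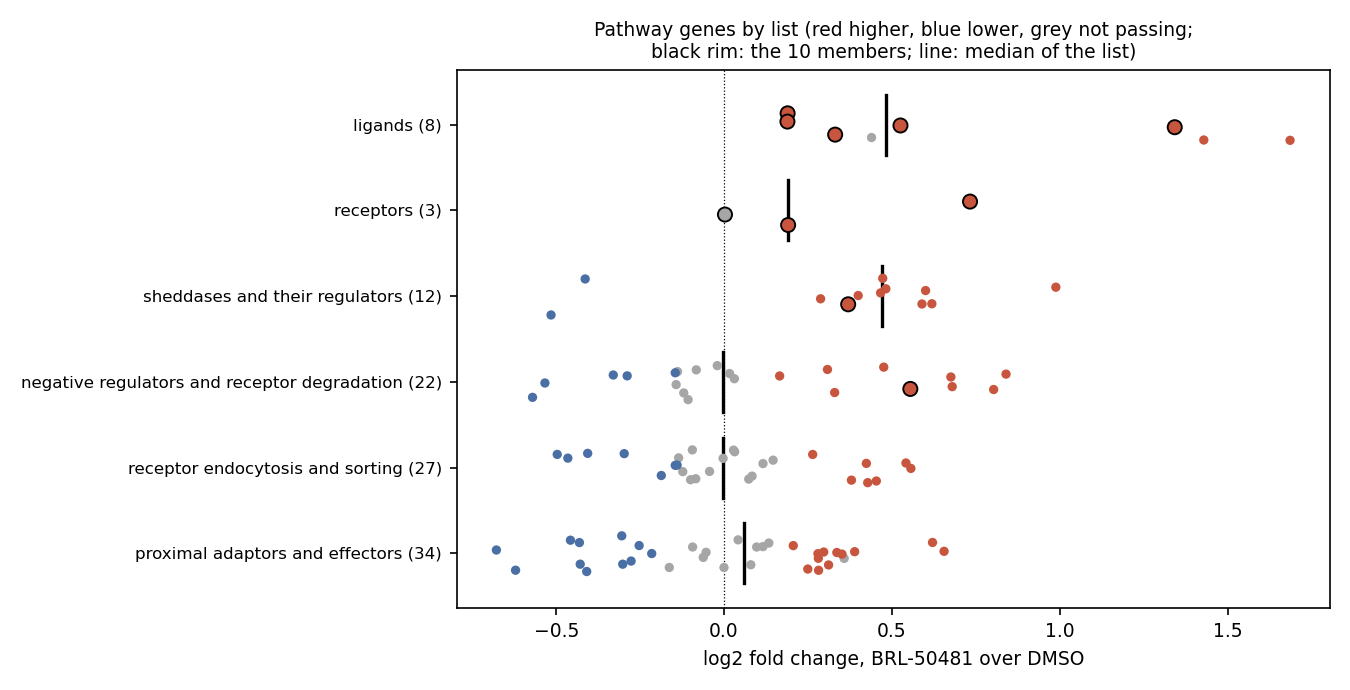
Log2 fold change of BRL-50481 over DMSO (horizontal axis) for the genes of 6 pathway lists (rows, number tested in brackets), red where higher, blue where lower and grey where the adjusted p-value was 0.05 or more, with the 10 members rimmed in black and the median of each list as a line. The lists of ligands and of sheddases with their regulators lie mostly to the right, with medians of 0.48 and 0.47. The lower 3 lists spread to both sides of 0.

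Over the 6 libraries, the log2 values of HBEGF were most like those of MMP14, NEK2 and LOXL4 among the 11455 genes averaging 100 or more normalized counts (Pearson's r of 0.9999, 0.9999 and 0.9998 over 6 libraries, given as a description). The libraries form 2 separate groups, so r mainly reflects the difference between DMSO and BRL-50481. MMP14, a membrane-bound matrix metalloproteinase, had a log2 fold change of 0.75, NEK2, a mitotic kinase, 0.86 and LOXL4, a lysyl oxidase, 0.96.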

How the data were processed

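RNA sequencing data were analysed for 6 libraries of MDA-MB-231 cells, grouped by their sample titles. By the Methods, single-end reads were aligned by the authors to hg38 with STAR 2.7.1a, assigned to UCSC gene models by htseq-count (reverse strand) and normalized with DESeq2 1.28. The deposited signal is the read count of a gene divided by the size factor of its library, called normalized count here. The other deposited columns hold the authors' own mean and DESeq2 comparison and were not used. The labels describe oligo-dT selection and the series record ribosomal RNA depletion.

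Every value was a whole multiple (tolerance 1e-06) of the value of 1 read in its library, 0.969 to 1.02 normalized counts, so whole reads were recovered for 100% of values and used in the count tests alone. Genes had to reach a normalized count of 4 in 3 or more libraries, the filter of the Methods. Log2 of the normalized count plus 1 was compared with limma 3.58.1 in R 4.3.3 (eBayes with a trend, groups as the only term), with Benjamini-Hochberg adjustment over the 15246 genes kept. Fold changes are on this scale. edgeR 4.0.16 (quasi-likelihood, TMM) and DESeq2 1.42.0 were run on the recovered reads. The main limma fit, edgeR and DESeq2 were first tested on simulated data, in which far fewer genes changed than were called here. The other alternatives were not tested in this way.

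The members and gene lists were chosen with earlier results of these data known. All members and every other ligand and receptor gene in the table are named. From each further list, the 2 largest called rises and falls among genes averaging 100 or more normalized counts are named, and for the member with the largest rise the 3 genes with the most similar log2 values. Positions, overlaps and transcript lengths came from GENCODE release 44 on hg38, promoter sequence from RefSeq. Alternatives were other pseudocounts (0.5 and 4), filters, scalings and tests, the replicate number as a block, and leaving out each library.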

Additional observations from a re-analysis of the deposited data

How the results depend on the processing

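Of the members called higher, HBEGF, NRG1, TGFA, EGFR, ADAM17 and ERRFI1 passed the threshold under all 16 alternatives. AREG did not pass it under 3, EREG under 6 and ERBB2 under 2. Without a variance trend in limma, AREG (adjusted p = 0.0848) and EREG (adjusted p = 0.110) were not called and 7 members were higher. Leaving out each library in turn left 7 to 9 members higher and 0 lower, with 3751 to 4876 genes called higher and 4027 to 4933 lower over the whole table. ERBB3, which was not called, had a log2 fold change of −0.037 with quantile normalization and of −0.059 to 0.10 with each library left out, where 4 of the 6 values were below 0. The cause of these shifts was not tested.

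With the replicate number as a replicate block, 9 members were higher, and 4440 genes were higher and 4589 lower, against 4400 and 4546 without it. With the block AREG, EREG and ERBB2 had limma adjusted p-values of 0.0176, 0.0168 and 0.0136, against 0.0156, 0.0390 and 0.0119 without it. The main fit did not treat the numbers as pairing the samples. Deviations of same-numbered libraries from their group means correlated at 0.121, 0.104 and 0.0514 across genes, which are not independent replicates. Of the 6 libraries, 5 correlated best with their own number. With 3 libraries in each group, these values cannot decide whether the numbers mark a pairing.

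The members' standard errors were 0.0422 to 0.0938 on the log2 scale, and the changes of AREG, EREG and ERBB2, 0.19 each, had standard errors of 0.0577 to 0.0727.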
